A study of Mus musculus with 24 samples.

Results

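The 36 genes described here belong to the hypoxia response and to glycolysis. They were chosen as a list of gene symbols, and each was found by its gene name in the scanner files, among 37008 names on the array. By role, 7 encode components of the hypoxia-inducible factor (HIF) system, 14 are targets of HIF, and 15 are enzymes of glycolysis or of its side branch in red cells. They were read in the liver and the bone marrow of Erfe-/- males that had been bled (phlebotomy) from the retro-orbital sinus and were examined 0, 24 or 48 h later. The labels call the 0 h mice controls and do not say whether these were punctured and examined at once or not bled at all. They are called unbled here for short. Each of the 6 groups, a tissue at a time, holds 4 arrays from 4 mice, which makes 24 single-colour Agilent arrays. Every mouse in every group, the unbled ones included, lacked functional Erfe, the gene of erythroferrone, a hormone that erythroid precursors release. The comparisons therefore describe bleeding on that background alone. Strain, age and the volume of blood drawn are not given in the sources used here.

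HIF is a transcription factor made of an oxygen-labile alpha subunit, encoded by Hif1a or Epas1, and a stable partner encoded by Arnt. When oxygen is plentiful, the prolyl hydroxylases encoded by Egln1, Egln2 and Egln3 mark the alpha subunit, and the ubiquitin ligase subunit encoded by Vhl then binds it for destruction. In hypoxia the subunit persists and switches on genes for erythropoietin, blood vessel growth, glucose uptake and glycolysis, the pathway that makes ATP from glucose without oxygen. Because the switch acts on the protein, the transcript levels of the alpha subunits need not follow HIF activity. Blood loss lowers oxygen delivery. Erythropoietin is then made mainly in the kidney, a tissue outside this study, and acts on erythroid precursors in the marrow.

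HIF binds DNA at a short core, written here as ACGTG or GCGTG and searched on both strands, where the letters can overlap one another. Promoter windows of 250 bases before and 50 bases after each gene start, from RefSeq on GRCm38.p6, were found for 34 of the 36 genes, all but Epas1 and Ndrg1. The core stood in at least 1 window of 29 of these 34 genes, or 85.3%, against 46.7% of all 27025 genes of the table and 60.7% of the 13297 of them that were tested on the arrays. Counted by window, it stood in 37 of 51 windows of the listed genes, or 72.5%, and in 43.8% of all 32851 windows. Of the 16807 windows of genes tested on the arrays, 55.6% held it. The genes without it were Vhl, Gpi1, Tpi1, Pklr and Bpgm, and the genes with the most matches in a window were Ldha with 7, Egln2 with 6 and Bnip3 and Hk1 with 5 each. A match describes letters only and is not a bound site.

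The 250 bases upstream of the start are shown for 4 genes that the results below turn on. Pfkm passed the test in marrow. By its brightest kept probe, Pdk1 had fitted changes of opposite sign in the tissues. Ankrd37 and Pklr moved furthest up and down in liver by their fitted change. Each sequence is written 5′ to 3′ along the strand of the gene, with the core, or the reverse complement of it, in capitals. Pfkm lies on the plus strand at chr15:98092339-98092588 and Pdk1 on the plus strand at chr2:71872974-71873223. Ankrd37 lies on the minus strand at chr8:45999851-46000100 and Pklr on the plus strand at chr3:89135892-89136141. Of 4 Pfkm starts, 2 Pdk1 starts and 2 Pklr starts in the table, the start with the most upstream matches is shown, or the first where they tie.
Pfkm: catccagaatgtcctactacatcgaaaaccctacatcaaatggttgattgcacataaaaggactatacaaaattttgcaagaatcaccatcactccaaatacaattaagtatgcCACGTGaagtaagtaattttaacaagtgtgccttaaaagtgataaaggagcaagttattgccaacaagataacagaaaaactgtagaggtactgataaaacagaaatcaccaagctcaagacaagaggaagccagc
Pdk1: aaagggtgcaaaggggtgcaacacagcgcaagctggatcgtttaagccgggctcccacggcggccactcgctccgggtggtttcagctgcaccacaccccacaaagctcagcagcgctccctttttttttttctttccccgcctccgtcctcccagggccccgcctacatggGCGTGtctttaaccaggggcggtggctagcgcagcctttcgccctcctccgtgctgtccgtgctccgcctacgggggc
Ankrd37: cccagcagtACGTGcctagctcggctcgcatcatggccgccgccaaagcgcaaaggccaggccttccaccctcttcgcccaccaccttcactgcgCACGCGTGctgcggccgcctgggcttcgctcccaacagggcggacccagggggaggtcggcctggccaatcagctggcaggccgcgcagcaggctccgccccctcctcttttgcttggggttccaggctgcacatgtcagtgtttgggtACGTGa
Pklr: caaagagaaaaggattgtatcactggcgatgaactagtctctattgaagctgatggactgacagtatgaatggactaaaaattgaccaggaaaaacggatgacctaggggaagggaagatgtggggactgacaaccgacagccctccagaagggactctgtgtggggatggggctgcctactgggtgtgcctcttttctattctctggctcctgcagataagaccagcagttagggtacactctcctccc
In Pfkm the 2 matches overlap on opposite strands and form the palindrome CACGTG, 136 bases before the start. Pdk1 has 1 match, 78 bases before the start. Ankrd37 has 4, at 241, 155, 152 and 6 bases before the start. Pklr has none in either of its windows.

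The level of a gene is the log2 of its probe's signal relative to the 75th percentile of all probes on the same array, so that a level of 0 is as bright as that percentile and a difference of 1 is a 2-fold change. Levels of different genes rest on different probes and are not compared. The 75th percentile itself was 361.2 to 473.1 intensity units on liver arrays and 715.0 to 954.7 on marrow arrays, and 28078 to 34496 probes in liver and 32366 to 35770 in marrow were well above background. No spot was saturated. Erfe, the deleted gene, has 2 probes: neither was above background on any of 12 liver arrays, and 1 of them was on 1 of 12 marrow arrays. All 24 hepatocyte markers were above background on every liver array, and all 17 erythroid markers on every marrow array. The marrow array of replicate 2 at 24 h stood apart, because it carried liver transcripts: its 24 hepatocyte markers had a median of 12.7% of their liver level, against 0.00401% to 0.0349% on the other marrow arrays. Where leaving it out takes away an unadjusted p under 0.05 of a listed gene in marrow, or moves a count of genes past the threshold by over 1.5 times, the value without it is given too. Nothing in the labels says more about how the mice were kept or paired, so the spread is that between these arrays. A smaller share of a cell type and less RNA per cell cannot be told apart in these bulk tissues.

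In liver, none of the 35 genes that could be tested passed the threshold, an adjusted p under 0.05 by limma with Benjamini-Hochberg adjustment over all 19647 genes tested, at 24 h or at 48 h. That is also the count over the whole tissue, 0.0% of genes at 24 h and 0.0% at 48 h. Without adjustment, 9 of the 35 had a p under 0.05 at 24 h, 5 of them higher and 4 lower, against 10.9% of all genes tested, and 4 did at 48 h, 1 higher and 3 lower, against 6.44%. The 4 arrays of bled and unbled liver did not overlap for 5 of the 35 at 24 h (background 5.53%) and for 2 at 48 h (background 4.2%). Both comparisons share the unbled arrays. The list as a whole had a median change of -0.02 at 24 h and 0.00 at 48 h, and all genes had -0.02 at both times. For 31 of the 35 genes at 24 h and 33 at 48 h, the 95% interval of the change lay within a 2-fold change either way, compared with 91.1% and 92.6% of all genes. A change of more than 2-fold in liver was thus outside the interval for most of the list, and the intervals that reached further were those of Ankrd37, Ddit4, Pdk1 and Pklr at 24 h and of Ankrd37 and Ddit4 at 48 h.

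Markers of other cell types differed between the liver groups too. The summed linear level of 17 erythroid markers was 183 to 222 unbled, 259 to 271 at 24 h and 253 to 393 at 48 h, although Rhag was not above background on any liver array. The sum of 13 B cell markers was 2.66 to 2.82, 3.02 to 4.26 and 2.48 to 2.91, and that of 9 markers of endothelium and stroma was 85.2 to 88.1, 94.4 to 106 and 84.9 to 110. For these 3 lists the 24 h arrays lay above all unbled ones. The sum of 10 late neutrophil markers overlapped, at 4.02 to 44.4, 20.6 to 77.5 and 5.50 to 22.5. Of the 10, 4 were above background on every unbled array, 7 on every 24 h array and 5 on every 48 h array. No direction is read from those tested, because the 24 h arrays helped decide which were. No marker passed the threshold in liver, and the hepatocyte sums of the 3 times overlapped. The part of these cell types in the liver values was not tested.

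**Figure D1:**
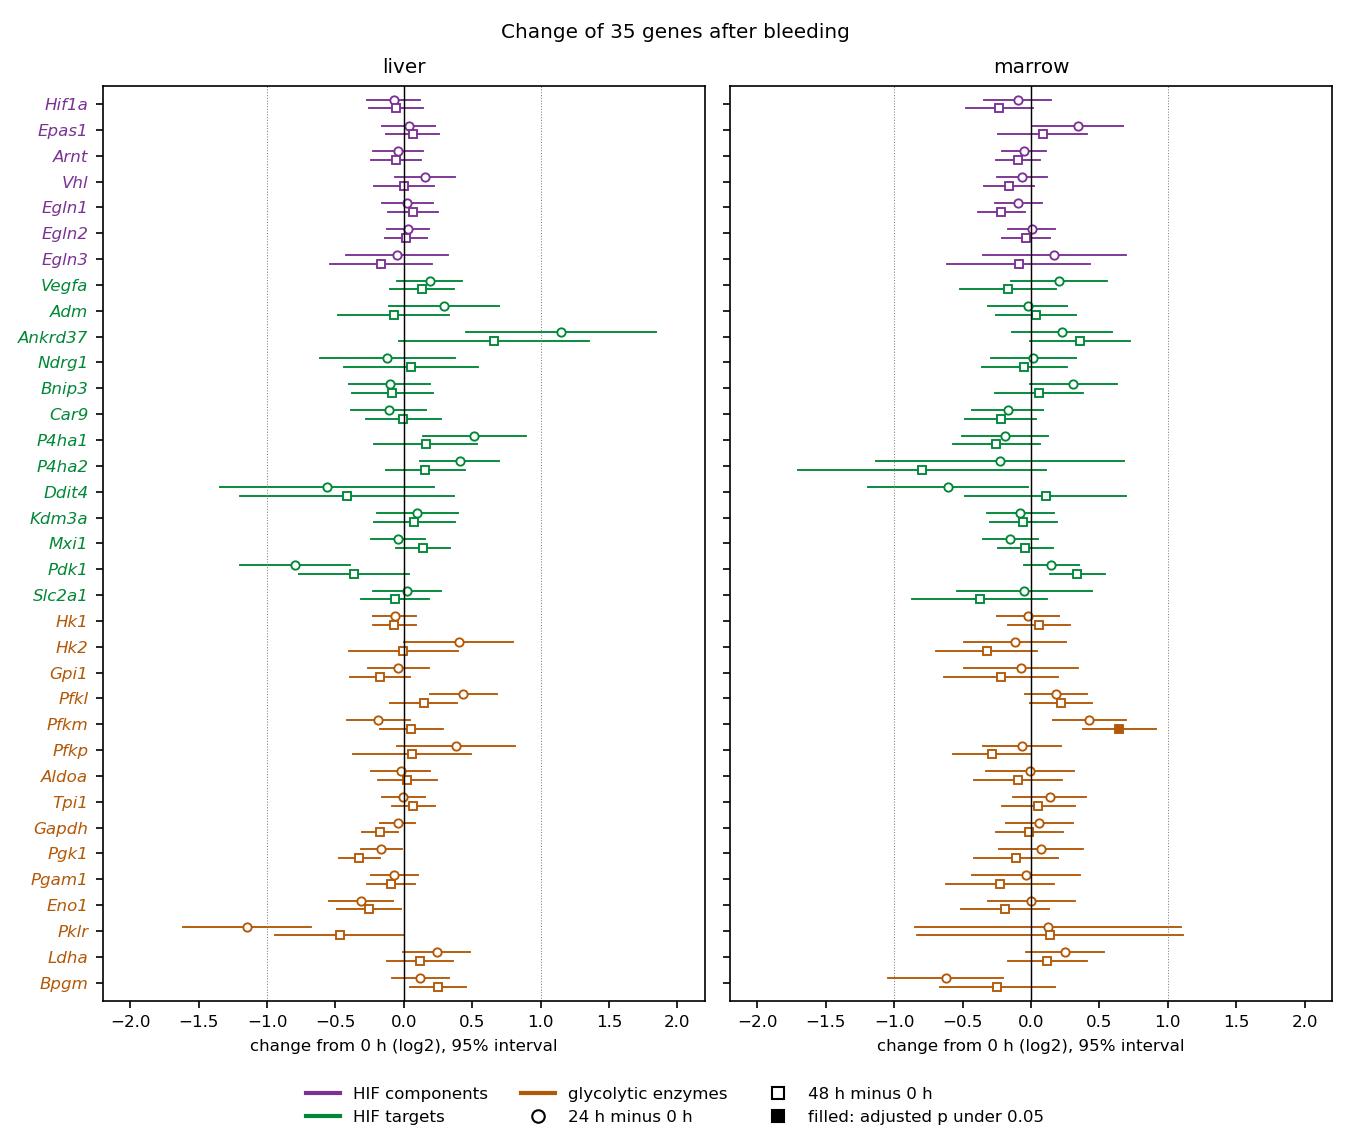
Change in log2 level after bleeding, bled minus unbled, for the 35 genes that could be tested, in liver (left) and marrow (right). Circles are 24 h and squares 48 h, bars are 95% intervals from limma, colour gives the role, and a filled symbol marks an adjusted p under 0.05, which Pfkm in marrow at 48 h alone carries. Dotted lines mark a 2-fold change either way, and most intervals lie between them.

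By the brightest kept probe of each gene, the 7 HIF components were the flattest role in liver. None had an unadjusted p under 0.05 at either time by that probe. Their changes ran from -0.07 to 0.15 at 24 h and from -0.17 to 0.07 at 48 h, and all 7 intervals stayed within a 1.5-fold change at both times. A dimmer Arnt probe, above background on all 12 liver arrays, gave a change of 0.52 at 24 h with an unadjusted limma p of 0.028. Hif1a, an oxygen-labile alpha subunit, had a mean level of 1.51 ± 0.10 (SD, n = 4) unbled, 1.43 ± 0.12 at 24 h and 1.45 ± 0.13 at 48 h. Epas1, the alpha subunit that drives erythropoietin production, stood at 5.02 ± 0.11, 5.05 ± 0.05 and 5.08 ± 0.16. Egln3, a prolyl hydroxylase whose own gene is a HIF target, stood at -0.05 ± 0.23, -0.10 ± 0.20 and -0.22 ± 0.33.

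Among the HIF targets, Epo was not above background on any of the 24 arrays, with probe values from -7.74 to -5.54, and was not tested. Ankrd37, an ankyrin repeat gene known as a HIF target, had the largest upward change in liver. Its level was -2.48, -3.61, -2.75 and -3.39 on the 4 unbled arrays, -1.04, -2.13, -2.06 and -2.40 at 24 h and -2.82, -2.42, -2.05 and -2.30 at 48 h. All 24 h arrays lay above all unbled ones, and the 48 h arrays overlapped with both groups. The change at 24 h was 1.15 (SE 0.32, 95% interval 0.45 to 1.85), a 2.22-fold difference with an exact permutation p of 0.0286, which is the smallest that 4 against 4 arrays can give, and a limma adjusted p of 0.340. At 48 h the change was 0.66 (SE 0.32).

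Pdk1, a kinase that inhibits pyruvate dehydrogenase, went the other way. In liver it read 3.46, 3.36, 3.29 and 3.60 unbled, 2.58, 2.23, 2.74 and 2.99 at 24 h, and 3.42, 2.62, 3.0 and 3.22 at 48 h. The 24 h arrays were all lower than the unbled ones, and the 48 h arrays spread across the gap. The change at 24 h was -0.80 (SE 0.18, adjusted p = 0.325 by limma). A second bright probe gave -0.68, but 2 dim probes of the gene gave 0.46 and -0.10, so the size and the direction depended on the probe.

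The prolyl 4-hydroxylase subunits P4ha1 and P4ha2, which modify collagen, had changes of 0.51 (SE 0.17) and 0.41 (SE 0.13) in liver at 24 h (adjusted p = 0.365 and 0.361 by limma). P4ha2 read -0.70, -0.93, -0.64 and -0.98 unbled and -0.25, -0.39, -0.49 and -0.48 at 24 h, without overlap. Ddit4, an inhibitor of mTORC1 that hypoxia and other stresses induce, had 1 unbled liver at 4.29 while the other 3 lay at 2.66 to 2.73. With that array its change at 24 h was -0.56, and without it -0.16. The other targets did not reach an unadjusted p under 0.05 at either time. Vegfa, the vessel growth factor, was at 3.21 ± 0.13 unbled, 3.39 ± 0.12 at 24 h and 3.34 ± 0.19 at 48 h, but a second Vegfa probe gave a change of 0.26 at 24 h with an unadjusted limma p of 0.021. Slc2a1, the glucose transporter GLUT1, was at 1.13 ± 0.05, 1.15 ± 0.24 and 1.07 ± 0.13. Bnip3, a mitophagy receptor, read 4.83 ± 0.22, 4.72 ± 0.16 and 4.74 ± 0.21, and Car9, a carbonic anhydrase, read -0.54 ± 0.23, -0.65 ± 0.07 and -0.55 ± 0.21. Adm, which encodes the vasodilator peptide adrenomedullin, had a change of 0.29 (SE 0.18) at 24 h and -0.07 at 48 h, and Ndrg1, Kdm3a and Mxi1 had changes between -0.12 and 0.10 at 24 h and between 0.05 and 0.14 at 48 h.

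The glycolytic enzymes of liver held the largest downward change of the list. Pklr encodes the liver and red cell pyruvate kinase, the last step of glycolysis. Its level was 0.07, 0.17, 0.41 and 0.67 unbled, -0.67, -1.21, -0.93 and -0.46 at 24 h, and 0.17, -0.66, 0.15 and -0.22 at 48 h. Every 24 h array was below every unbled array, and at 48 h 2 arrays were back in the unbled range. The change at 24 h was -1.15 (SE 0.21, 95% interval -1.62 to -0.68, exact permutation p = 0.0286, limma adjusted p = 0.321), and at 48 h it was -0.47 (SE 0.21).

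Pfkl, the liver subunit of phosphofructokinase, which commits sugar to glycolysis, was higher at 24 h. It read 0.65, 0.35, 0.65 and 0.70 unbled, 1.33, 1.01, 0.86 and 0.90 at 24 h, and 0.68, 0.80, 0.71 and 0.75 at 48 h. The 24 h arrays lay above those of both other times. The change was 0.43 (SE 0.11, adjusted p = 0.325 by limma), and the second kept probe gave 0.34. Hk2, an inducible hexokinase, had a change of 0.40 (SE 0.18, adjusted p = 0.454).

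Lower in the pathway, Pgk1, the phosphoglycerate kinase, read 7.67, 7.58, 7.58 and 7.73 unbled, 7.50, 7.39, 7.58 and 7.43 at 24 h, and 7.35, 7.23, 7.29 and 7.38 at 48 h. The 48 h arrays lay below all of the unbled and all of the 24 h arrays. The change at 48 h was small but tightly measured, -0.33 (SE 0.07, adjusted p = 0.421 by limma). Gapdh, the dehydrogenase before it in the pathway, read 8.70, 8.60, 8.69 and 8.76 unbled and 8.57, 8.50, 8.50 and 8.48 at 48 h, a change of -0.18 (SE 0.06, adjusted p = 0.660). Eno1, an enolase, had -0.31 (SE 0.11) at 24 h and -0.25 (SE 0.11) at 48 h. Ldha, which reduces pyruvate to lactate, stood at 7.99 ± 0.19, 8.23 ± 0.11 and 8.11 ± 0.17. The remaining enzymes had changes between -0.19 and 0.38 at 24 h and between -0.17 and 0.25 at 48 h.

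Between 24 h and 48 h in liver, no listed gene and no other gene passed the threshold (0.0% by limma). Without adjustment 6 of the 35 had a p under 0.05, 3 in each direction, against 7.63% of all genes, and the arrays of the times did not overlap for 3, against 3.66%. Pklr was 0.68 (SE 0.21) higher and Pdk1 0.43 (SE 0.18) higher at 48 h than at 24 h, and Pfkl was lower, with a change of -0.29 (SE 0.11). The arrays that did not overlap were those of Pfkl, Gapdh and Pgk1.

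**Figure D2:**
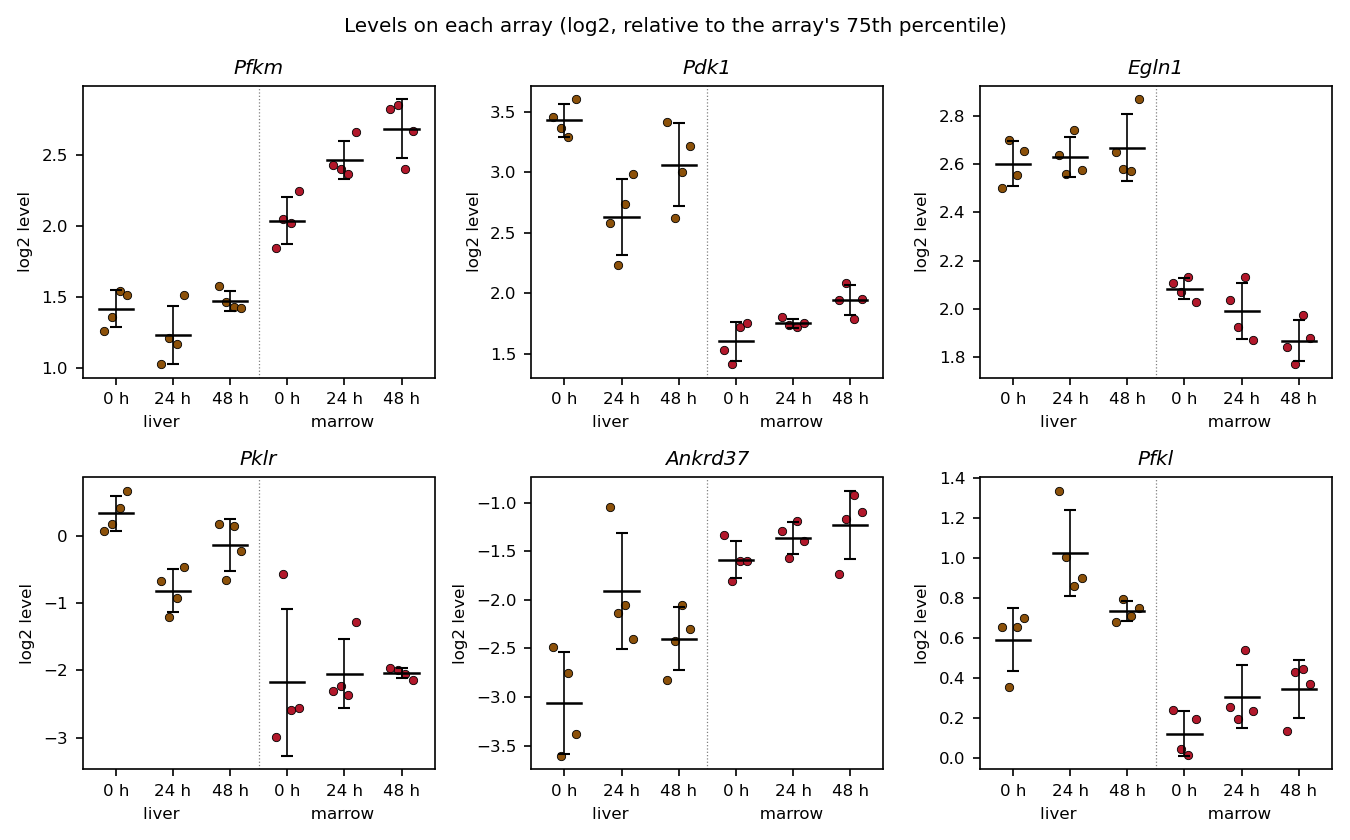
Level on each array (log2 relative to the array's 75th percentile) of Pfkm, Pdk1, Egln1, Pklr, Ankrd37 and Pfkl at 0, 24 and 48 h after bleeding, liver in brown and marrow in red, with bars at the mean ± SD of 4 arrays. Pfkm in marrow runs from 1.84 to 2.24 unbled and from 2.40 to 2.85 at 48 h, and Pklr in liver lies at 0.07 or above unbled and at -0.46 or below at 24 h.

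In marrow, 1 of the 35 genes passed the threshold, Pfkm at 48 h, out of 21395 genes tested. At 24 h 0 passed, with 217 genes or 1.01% over the tissue (0 and 135 genes without the array with liver transcripts), and at 48 h the 1 stands against 264 genes or 1.23%. An unadjusted p under 0.05 was reached by 4 of the 35 at 24 h (2 higher, 2 lower, background 12.6%; 2 without that array, background 12.1%) and by 3 at 48 h (2 higher, 1 lower, background 16.0%). Bled and unbled arrays did not overlap for 1 gene at 24 h, against 8.27% of all genes, and for 3 at 48 h, against 12.7%. By either measure the share of the list did not exceed the background at either time. The interval lay within a 2-fold change for 31 genes at 24 h and 33 at 48 h, next to 88.1% and 89.6% of all genes. The median change of the list was -0.02 at 24 h and -0.09 at 48 h, where all genes had -0.02 and 0.00.

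Pfkm encodes the muscle-type subunit of phosphofructokinase, which red cells also carry. Its marrow level was 1.84, 2.05, 2.02 and 2.24 unbled, 2.43, 2.40, 2.36 and 2.67 at 24 h, and 2.82, 2.85, 2.40 and 2.67 at 48 h. Every array of bled marrow, at both times, was above every unbled one. The change was 0.43 (SE 0.12, 95% interval 0.16 to 0.69, adjusted p = 0.147 by limma) at 24 h and 0.65 (SE 0.12, interval 0.38 to 0.91, exact permutation p = 0.0286, adjusted p = 0.0315) at 48 h, a 1.56-fold rise. Pfkm has a single probe on the array, at chr15:97962713-97962772 of mm9 on the plus strand. In liver the same probe read 1.42 ± 0.13 unbled, 1.23 ± 0.21 at 24 h and 1.47 ± 0.07 at 48 h.

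The call for Pfkm was close to the threshold. Over 14 other settings its 48 h change lay between 0.59 and 0.67, and it kept an adjusted p under 0.05 in 7 of them. Leaving out 1 marrow array at a time gave changes of 0.58 to 0.74 with adjusted p-values of 0.0160 to 0.118, and the call was lost without replicate 1, 2 or 3 at 0 h, without replicate 1 at 24 h, and without replicate 1, 2 or 4 at 48 h.

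Cell type markers moved in marrow as well. The summed linear level of 17 erythroid markers was 1265 to 1624 unbled, 1239 to 1484 at 24 h and 1515 to 1858 at 48 h. Their median change at 48 h was 0.43, and 2 of 17 passed the threshold, Rhag and Tfrc, against 1.23% of all genes. The sum of 6 skeletal muscle markers was 0.197 to 0.438 unbled, 0.387 to 0.869 at 24 h and 0.285 to 0.987 at 48 h, and the defining genes Ckm, Mb and Myh1 were not above background on any unbled marrow array. The part of either in the Pfkm values was not tested. The sum of 13 B cell markers was 46.4 to 77.7 unbled, 31.1 to 47.3 at 24 h and 32.3 to 60.6 at 48 h. Their median change was -0.70 at 24 h and -0.55 at 48 h. At 24 h 2 of 13 passed as lower, against 0.463% of all genes. The sum of 10 macrophage and Kupffer cell markers was 66.3 to 73.5 unbled, 51.3 to 61.4 at 24 h and 53.9 to 59.9 at 48 h, so that the bled arrays lay below all unbled ones. Of the 9 of them that were tested, 6 had a lower level with an unadjusted p under 0.05 at 24 h, against 6.86% of all genes. None of the 9 passed the threshold. The sum of 7 T and NK cell markers was also lower without overlap, at 6.30 to 6.85, 5.12 to 6.16 and 5.20 to 6.09. Of these 7, 2 passed at 24 h, against 1.01% of all genes.

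The HIF components of marrow ranged from -0.10 to 0.34 at 24 h and from -0.23 to 0.09 at 48 h. Egln1, the main oxygen-sensing prolyl hydroxylase, read 2.11, 2.07, 2.13 and 2.03 unbled, 2.03, 1.92, 2.13 and 1.87 at 24 h, and 1.84, 1.77, 1.97 and 1.88 at 48 h. The 48 h arrays lay just under all unbled ones, with a change of -0.22 (SE 0.08, adjusted p = 0.200 by limma), and those of 24 h overlapped with both. Arnt, the stable partner, was at 1.34 ± 0.11 unbled, 1.29 ± 0.07 at 24 h and 1.25 ± 0.04 at 48 h, and Vhl at 1.35 ± 0.08, 1.29 ± 0.13 and 1.19 ± 0.07. Hif1a stood at 1.40 ± 0.14, 1.30 ± 0.17 and 1.17 ± 0.15 at the 3 times. Epas1 was 0.34 (SE 0.15) higher at 24 h, but the array with liver transcripts was its highest at 3.41, and without that array the difference was 0.20.

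Of the targets in marrow, Pdk1 had the firmest difference. It read 1.53, 1.41, 1.72 and 1.75 unbled, 1.80, 1.73, 1.72 and 1.76 at 24 h, and 1.94, 2.09, 1.79 and 1.95 at 48 h. The 48 h arrays were all above the unbled ones. The change was 0.34 (SE 0.09, adjusted p = 0.107 by limma), and the second bright probe gave 0.46. Ddit4 read 4.10, 2.60, 3.09 and 2.84 unbled, 2.43, 2.47, 2.61 and 2.71 at 24 h, and 3.37, 3.32, 3.47 and 2.90 at 48 h. Replicate 1 of the unbled group was high for Ddit4 in both tissues, and without it the marrow change at 24 h went from -0.61 to -0.29. Without the array with liver transcripts it was -0.58, with an unadjusted limma p of 0.0835.

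Other targets in marrow did not reach an unadjusted p under 0.05 at either time. Vegfa was at 0.40 ± 0.24 unbled, 0.61 ± 0.24 at 24 h and 0.24 ± 0.24 at 48 h, Slc2a1 at 0.53 ± 0.37, 0.48 ± 0.35 and 0.15 ± 0.33, and Adm at -3.92 ± 0.13, -3.95 ± 0.27 and -3.89 ± 0.15. Bnip3 stood at 1.34 ± 0.13, 1.65 ± 0.33 and 1.40 ± 0.13, and its highest array at 24 h, 2.12, was the one with liver transcripts. Without that array the change at 24 h was 0.15 for Bnip3 in place of 0.31, and 0.11 for Vegfa in place of 0.21. P4ha2 spread widely at 48 h, from -3.08 to -0.93 around a mean of -1.78, against -0.98 unbled. The interval of its change was -1.71 to 0.11, and no other tested target had an interval past a 2-fold change at 48 h. Ankrd37, higher in bled liver, had a change of 0.36 (SE 0.17, adjusted p = 0.325 by limma) in marrow at 48 h. Mxi1, a MYC antagonist, Kdm3a, a histone demethylase, and Ndrg1, a stress-response gene, had changes between -0.15 and 0.02 at 24 h and between -0.06 and -0.04 at 48 h.

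Apart from Pfkm and Bpgm, the fitted changes of the marrow enzymes were small. Bpgm makes 2,3-bisphosphoglycerate, which loosens the grip of haemoglobin on oxygen, and is abundant in erythroid cells. It read 4.66, 4.94, 4.94 and 5.42 unbled, 4.2, 4.28, 4.28 and 4.71 at 24 h, and 4.80, 5.02, 4.29 and 4.88 at 48 h. Only the highest array of 24 h reached the unbled range. The change was -0.62 (SE 0.19, adjusted p = 0.185 by limma) at 24 h and -0.25 (SE 0.19) at 48 h. Pfkp, the platelet subunit of phosphofructokinase, had -0.28 (SE 0.13) at 48 h and Pfkl 0.22 (SE 0.10), so the fitted values of the 3 subunits of this enzyme were 0.65, 0.22 and -0.28. A difference between the subunits was not tested. The other 11 enzymes had changes between -0.12 and 0.25 at 24 h and between -0.33 and 0.14 at 48 h, and none of them had an unadjusted p under 0.05. Hk2 marked the lower end at both times and Ldha the upper end at 24 h.

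Within each marrow group, most of the glycolytic enzymes were high or low together on the same arrays. Replicate 1 was the highest array for 11 of the 15 enzymes in unbled marrow, replicate 3 for 11 at 24 h and replicate 3 for 10 at 48 h. The same arrays had the highest summed level of 10 late neutrophil markers in their group (2819, 2568 and 2599) and of 6 early neutrophil markers (860, 758 and 780). Replicate 2 unbled and replicate 1 at 48 h were lowest for 10 enzymes each, and had late neutrophil sums of 2013 and 1999, the lowest of their groups. Pfkm was the reverse: it was lowest on those 3 arrays where most enzymes were highest. Pklr was also lowest on the unbled and the 24 h array of these, and Bpgm on the unbled and the 48 h array. The part of the neutrophil content in the enzyme values was not tested.

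Between 24 h and 48 h in marrow none of the 35 genes passed the threshold, where 1 gene did over the tissue (0.00467%). By unadjusted p there were 2, Ddit4 with 0.71 (SE 0.27) and Vegfa with -0.37 (SE 0.16), against 7.68% of all genes. The array with liver transcripts was the highest of its group for Vegfa, which is brighter in liver, and without it the Vegfa change was -0.28 with an unadjusted limma p of 0.116. Ddit4 alone had arrays that did not overlap between these times, against 3.71% of all genes.

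Whether bleeding changed a gene differently in marrow and liver was the question of an interaction term, fitted to 24 arrays and 22771 genes. No listed gene passed the threshold for 24 h, where 83 genes or 0.364% did (50 without the marrow array with liver transcripts), or for 48 h, where 94 or 0.413% did. An unadjusted p under 0.05 was found for 6 of the 35 at 24 h, 3 in each direction, against 11.4%, and for 4 at 48 h, 2 in each direction, against 11.0%. Pdk1 had the smallest adjusted p of the list at 24 h: its change in marrow exceeded that in liver by 0.95 (SE 0.21, adjusted p = 0.0593 by limma). It passed under 4 of 13 other settings, with adjusted p-values of 0.0317 to 0.0430, and when replicate 1 or 2 of liver at 48 h or replicate 3 or 4 of liver at 24 h was left out (0.0227 to 0.0469). With the mean of all its kept probes the difference was 0.44 (adjusted p = 0.401).

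At 48 h the interaction for Pdk1 was 0.70 (SE 0.21, adjusted p = 0.176). Pfkm had 0.61 (SE 0.16, adjusted p = 0.106) at 24 h and 0.59 (SE 0.16, adjusted p = 0.130) at 48 h, so the rise called in marrow was not shown to differ from the liver values by this test. Without replicate 4 of liver at 24 h its 24 h value was 0.71 with an adjusted p of 0.0412. For Pklr the value at 24 h was 1.27 (SE 0.52, adjusted p = 0.340), and 1.81 with an adjusted p of 0.0400 without replicate 2 of unbled marrow, whose level of -0.56 lay far above the other 3 at -3.0 to -2.56. The remaining interactions with an unadjusted p under 0.05 at 24 h were negative: Bpgm with -0.74, P4ha1 with -0.70 and Ankrd37 with -0.93.

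The unbled tissues differed far more from each other than either did from its bled state. Of the 35 genes, 29 passed the threshold, 10 higher and 19 lower in marrow, in a comparison where 80.3% of all 22771 genes did, 39.6% higher and 40.6% lower. The share called is near that of all genes, so the listed genes are described by the size of their differences. Of the HIF components 1 was higher and 5 were lower in marrow, of the targets 3 and 6, and of the enzymes 6 and 8. Values are scaled within each array, so a direction is relative to the other genes of the tissue. The median difference of all genes was -0.03, and it moved to -0.25 with normexp background correction, -0.44 without a filter on dim probes and -0.13 with a strict one.

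**Figure D3:**
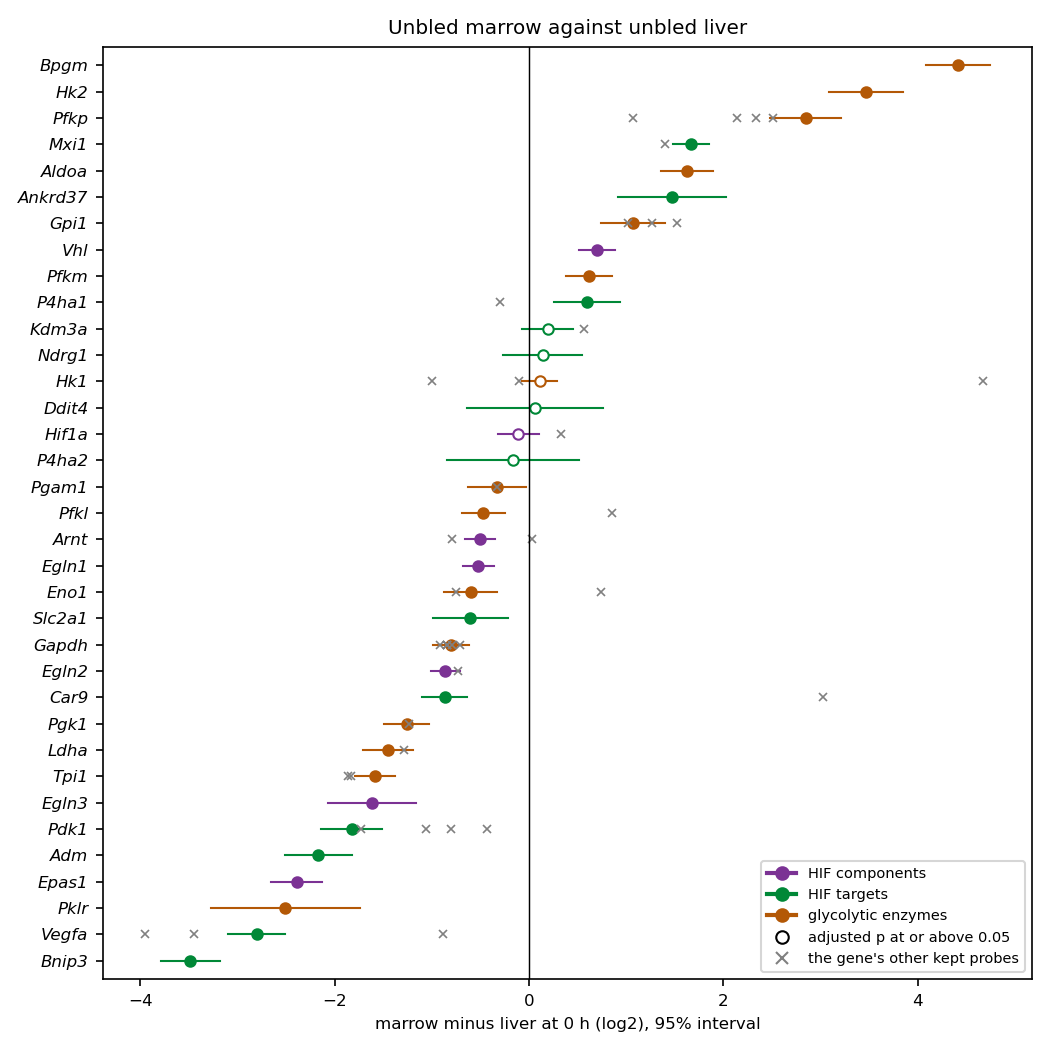
Difference in log2 level between unbled marrow and unbled liver for 35 genes, ordered by size, with the 95% interval from limma. Filled symbols have an adjusted p under 0.05, colour gives the role and grey crosses are other kept probes of the gene. Bpgm at 4.42 and Bnip3 at -3.49 are the ends of the order, and for Hk1 and Car9 the crosses lie far from the probe that stands for the gene.

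Among the HIF components Epas1 was much lower in marrow, with a difference of -2.39 (SE 0.13, adjusted p = 3.1e-13 by limma), and Hif1a was close in both, at -0.11 (SE 0.10, 95% interval -0.32 to 0.10). The prolyl hydroxylases were all lower in marrow, Egln1 with -0.52, Egln2 with -0.86 and Egln3 with -1.61. Arnt had -0.51, and Vhl was higher at 0.70. The direction held under every scaling tried for each of these genes except Hif1a, whose value ran from -0.12 to 0.11.

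Among the targets, Bnip3 (-3.49, SE 0.15), Vegfa (-2.80, SE 0.14), Adm (-2.17, SE 0.17) and Pdk1 (-1.83, SE 0.15) were lower in marrow. Higher were Mxi1 (1.67, SE 0.09), Ankrd37 (1.47, SE 0.27) and P4ha1 (0.60, SE 0.16). P4ha1 was not past the threshold with normexp correction (0.23, adjusted p = 0.0910 by limma) or with the mean of all its kept probes (0.15, adjusted p = 0.624), and its second, dim probe gave -0.30, so its direction depended on the probe. Slc2a1 was lower too (-0.60, SE 0.19). Car9 was lower by its brightest probe (-0.86) but higher by another (3.03), and the mean of its probes gave 1.08, so no direction holds for it. Kdm3a, Ndrg1, Ddit4 and P4ha2 did not pass.

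Enzymes were found on both sides of 0. Hexokinase Hk2 was 11.1-fold higher in marrow (3.47, SE 0.18), and the phosphofructokinase subunits Pfkp and Pfkm were 7.20-fold (2.85, SE 0.17) and 1.54-fold (0.62, SE 0.11) higher, while the liver pyruvate kinase Pklr was lower (-2.51, SE 0.37). Bpgm was 21.4-fold higher in marrow (4.42, SE 0.16, adjusted p = 7.4e-16 by limma). Aldoa, the widespread aldolase, had 1.63 and Gpi1, the glucose phosphate isomerase, 1.07. Tpi1, the triose phosphate isomerase, had -1.59, Ldha -1.45 and Pgk1 -1.26. Smaller differences depended on the scaling: Gapdh went from -0.80 to 0.02 and Pgam1, a phosphoglycerate mutase, from -0.33 to 0.24 with quantile normalization, and Eno1 from -0.60 to -0.07. Pfkl had -0.47 by its brightest probe and 0.85 by its second, with 0.19 for their mean.

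Several genes rest on probes that do not tell one story. The brightest Hk1 probe, at 7.29 in liver and 7.46 in marrow, shares 38 of its 60 bases with a probe of another name, while a second Hk1 probe went from -0.37 in liver to 4.44 in marrow, a difference of 4.67 between the unbled tissues. Which transcript the value of 0.11 for Hk1 measures was not tested. The Eno1 probe shares 53 of 60 bases with a probe named for Eno1b, and another Eno1 probe gave 0.74 where it gave -0.60. For Gapdh, 6 of 7 probes share 20 to 34 bases with probes of other names, yet all 7 gave differences between -0.92 and -0.71. Car9 was read by different probes in the tissue fits. Hif1a has a probe on the strand opposite to the gene, whose change of 1.37 in liver at 24 h had an unadjusted limma p of 0.032, and what it measures was not tested.

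Genes of the same pathways outside the list were counted as well. Of 17 further genes of HIF regulation, 15 were tested in liver and 16 in marrow, of 46 further targets 40 and 41, and of 31 further genes of sugar metabolism 30 and 28. In liver none passed the threshold at 24 h or 48 h, and neither did any other gene. An unadjusted p under 0.05 was reached by 2, 11 and 6 of the 3 lists at 24 h, against 10.9% of all genes. At 48 h it was reached by 0, 6 and 5, against 6.44%. In marrow at 24 h 2 targets passed, where 1.01% of all genes did. Tfrc, the transferrin receptor, rose from 3.24 ± 0.13 to 4.05 ± 0.20 (adjusted p = 0.0143 by limma), and Hmox1, haem oxygenase, fell from 4.56 ± 0.27 to 3.25 ± 0.31 (adjusted p = 0.00686). The erythroid marker list holds Tfrc too, and its own values in marrow stand above, as do those of the macrophage markers, which were lower at 24 h as Hmox1 was. The part of macrophage content in the Hmox1 values was not tested.

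At 48 h 3 of the further genes passed in marrow, where 1.23% of all genes did. Tfrc stood at 4.27 ± 0.21, a change of 1.02 (SE 0.13, adjusted p = 0.00325 by limma). Hif3a, an alpha subunit that can restrain the others, rose from -2.74 ± 0.29 to -1.85 ± 0.15 (change 0.89, adjusted p = 0.0225), and Ier3, a stress-response gene, from -1.47 ± 0.17 to -0.70 ± 0.16 (change 0.76, adjusted p = 0.0208). Leaving out 1 array at a time kept Tfrc at 48 h and Hmox1 under the threshold in 12 of 12 fits, Tfrc at 24 h in 10, and Hif3a and Ier3 in 6 each. Under other settings the Ier3 call was lost with median scaling (adjusted p = 0.0764), no filter on dim probes (0.0761), the slide as a block (0.0806), the replicate block (0.0501) and the position on the slide as a block (0.0531). The Hif3a call was lost with median scaling (0.0733), no filter (0.0788) and the position as a block (0.0900), that of Tfrc at 24 h with no filter (0.0541) and the position as a block (0.0708), and that of Hmox1 with the position as a block (0.0612). No further gene of sugar metabolism passed in marrow at either time. An unadjusted p under 0.05 was reached by 1 at 24 h and 5 at 48 h, against 12.6% and 16.0% of all genes. No further gene of the 3 lists passed between 24 h and 48 h or for either interaction.

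Between the unbled tissues 80.3% of all genes tested passed. Of the further genes, 14 of 16 HIF regulators, 38 of 43 targets and 29 of 30 genes of sugar metabolism did. Among those with the largest differences, the lactate dehydrogenase Ldhd (-8.69, SE 0.71) and the glycogen gene Ppp1r3c (-8.21, SE 0.62) were lower in marrow, the latter with a probe above background on 2 of 4 unbled marrow arrays. Slc2a2, the hepatocyte glucose transporter, was not above background on any unbled marrow array and was at least 115-fold higher in liver, measured against the dimmest signal well above background on each array. Slc2a3, a glucose transporter of blood cells, was higher in marrow, where it read 3.40 ± 0.14. Its probe was above background on 1 of 4 unbled liver arrays, so the size of the fitted difference, 7.67, rests on dim liver values.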

How the data were processed

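Scanner files of 24 arrays, read with Agilent Feature Extraction 10.10.1.1 per the submitters' processing notes, hold the processed intensity that the authors deposited, which is background subtracted and detrended per the file headers. A table of log2 values that the authors deposited served only as an alternative: in rank order each column matched the median spot signal, its medians were 7.74 in liver and 8.31 in marrow after rounding, and how it was made is not given in the sources used here. Control spots (3671) and spots marked as outliers were left out, spots of a probe were averaged, and log2 intensity minus the array's 75th percentile was used. Kept probes were well above background on every array of 1 or more groups, and the brightest kept probe stood for its gene. Of the 36 genes, 35 were tested in each fit, from 81 probes. Tests used limma 3.58.1 in R 4.3.3 (lmFit, eBayes, two-sided) on 12 arrays per tissue or all 24, with Benjamini-Hochberg adjustment over all genes tested and a threshold of 0.05. The fit was tested on simulated data. An exact two-sided permutation test over arrays stands beside single genes. Groups, times and replicate numbers came from the sample titles.

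All 36 genes are named, and of the further pathway genes those that passed, up to the 6 with the largest change per comparison, some of which are not reported here. The genes, lists and comparisons were chosen with earlier results of these data known. Alternatives covered scaling, background correction, dim-probe filters, probe choice, slide and replicate blocks, variance model, array weights and leaving out each array. Probe positions are on mm9, per the file headers, and their exons were not analysed here. Promoter windows came from RefSeq on GRCm38.p6. The number of arrays limits the precision.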

Additional observations from a re-analysis of the deposited data

Results flagged for a closer look

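Of 210 sets of 4 arrays, a gene in a group, 8 (3.81%) had 1 array far from the other 3, with a gap beyond Dixon's 95% critical value for 4 arrays, and chance alone gives about 1 in 20. In unbled liver, Arnt on replicate 2 was at 1.67 while the others lay at 1.89 to 1.92, Pfkl on replicate 2 was at 0.35 against 0.65 to 0.70, and Ddit4 on replicate 1 was at 4.29 against 2.66 to 2.73. In liver at 48 h, Car9 on replicate 2 was at -0.23 against -0.69 to -0.62, and Bpgm on replicate 1 was at 0.62 against 0.88 to 0.90. P4ha2 in unbled marrow was at -0.48 on replicate 2, against -1.22 to -1.10. In marrow at 24 h replicate 4 was high for both Pklr, at -1.29 against -2.37 to -2.23, and Bpgm, at 4.71 against 4.2 to 4.28. The array of replicate 2 at 24 h that carries liver transcripts is not among these 8.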

How the results depend on the processing

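Counts of genes past the threshold depended on the settings more than the changes of single genes did, and where no construction of a setting shows it, the cause was not tested. In marrow at 24 h the count of 217 genes became 142 with median scaling, 69 without a filter on dim probes, 385 with array weights and 64 with the position on the slide as a block, which was chosen after seeing the data. At 48 h the count of 264 became 123 with median scaling, 100 without a filter, 116 with the slide as a block, 645 with array weights and 76 with the position on the slide as a block. Between 24 h and 48 h the count of 1 became 2 with array weights, 0 with only the arrays compared in the fit and 0 with the position as a block. The interaction count of 83 at 24 h became 26 with median scaling, 139 with normexp correction, 156 with the authors' deposited values, 22 without a filter and 40 with the position as a block. That of 94 at 48 h became 18 with median scaling, 157 with normexp correction, 24 without a filter, 146 with a strict filter, 155 with a trended and robust eBayes fit, 174 with array weights and 35 with the position as a block.

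Among the 35 genes, the count of 1 in marrow at 48 h became 0 with quantile normalization (adjusted p of Pfkm 0.0527), median scaling (0.0599), no filter (0.116), the slide as a block (0.0806), only the arrays compared (0.0648) and the position as a block (0.129). The count of 0 for the interaction at 24 h became 1, Pdk1, with a strict filter (0.0369), the slide as a block (0.0430) and the trended and robust fit (0.0353), and that of 48 h became 1, Pfkm, with array weights (0.0485). With the mean of all kept probes, the difference between unbled tissues turned to 1.08 for Car9 and 0.19 for Pfkl. With quantile normalization it turned to 0.017 for Gapdh and 0.24 for Pgam1. For single genes, 4238 of 4270 other values kept their direction where called and their side of the threshold, as did 5021 of 5040 with 1 array left out. The share of all promoter windows with the core letters was 38.6% in the upstream bases alone.

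Leaving out 1 array at a time gave 0 to 2 genes in liver at 24 h, 0 to 9 at 48 h and 0 to 1 between them. In marrow it gave 72 (without replicate 2 at 0 h) to 213 at 24 h, 98 (without replicate 2 at 48 h) to 379 at 48 h and 1 to 1 between them. For the interaction it gave 24 (without replicate 2 of marrow at 0 h) to 178 at 24 h and 29 (without replicate 2 of marrow at 48 h) to 110 at 48 h, and between unbled tissues 17878 to 18483. Among the 35 genes it gave 0 to 1 in marrow at 48 h, 0 to 2 for the interaction at 24 h and 28 to 29 between unbled tissues.

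Whether equal replicate numbers mark the same mouse is not stated. Arrays with the same number and time correlated at 0.003 to 0.152 between liver and marrow, with 6 of 12 over 0.1, which fell short of all pairs being over 0.1, so the numbers were not treated as pairs. Of 36 pairs with unlike numbers 0 were over 0.1 (highest 0.072), and 11 of 12 liver and 10 of 12 marrow arrays correlated best with their own number. Liver and marrow arrays of the same number and time also shared a slide and a row on it, and pairs with unlike numbers did not share both. A shared mouse and a shared place on the slide therefore cannot be told apart. With the replicate block the count was 126 in marrow at 24 h, 100 at 48 h and 2 between them, 164 and 167 for the interactions at 24 h and 48 h, 0 of the 35 in marrow at 48 h (Pfkm 0.0633) and 1 of the 35 for the interaction at 24 h (Pdk1, 0.0317). The deposited table, whose column medians differ between the tissues and whose making is not given in the sources used here, was not used between unbled tissues. Probes near background limit what can be said of Epo.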
